A study of Homo sapiens with 6 samples.

Results

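The collagen, laminin and integrin genes of TE-10 cells, a human squamous cell line from a carcinoma of the esophagus, were described with and without knockdown of METTL3, the enzyme that writes N6-methyladenosine (m6A) on mRNA. Members were chosen by symbol alone: names of the form COL, number, A, number for collagen chains, LAMA, LAMB or LAMC with a number for laminin chains, and the ITGA and ITGB symbols for integrin chains. They were 81 of the 18249 genes in the expression table, and 80 are described: 43 collagen, 11 laminin, 18 integrin alpha and 8 integrin beta genes. The RNA-seq groups were cells with normal METTL3 (control, 1 library) and cells with stable shRNA knockdown of METTL3 (2 libraries, titled sh1 and sh2 and called knockdown 1 and knockdown 2 here). m6A peaks came from TE-10 cells of normal genotype, with 1 input and 2 immunoprecipitated libraries whose labels give different m6A antibodies. All groups are from 1 cell line in serum-containing medium. Separate cultures or clones are not named in the labels, so any p-value reflects the spread of these libraries alone and that spread may be technical.

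Epithelial cells rest on a basement membrane, a sheet in which laminin trimers and a network of type IV collagen are the main polymers. Each laminin is a trimer of an alpha, a beta and a gamma chain, and each collagen a triple helix of alpha chains. Integrins are cell surface receptors made of an alpha and a beta chain that bind these polymers and connect them to the cytoskeleton. In stratified epithelia such as that of the esophagus, basal cells are anchored by hemidesmosomes, where integrin alpha6 beta4 and the transmembrane collagen XVII hold laminin-332, which anchoring fibrils of collagen VII tie to the connective tissue beneath.

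The expression values are those the authors deposited, in a unit they do not state, so levels are mainly compared between libraries for 1 gene. Marker sums, the cutoffs of 1 and 5 and the order within lists do set genes side by side. They take values as comparable between genes, which was not tested, and the sums weigh the highest markers most. METTL3 was at 20.81 in control cells, against 8.35 in knockdown 1 and 4.99 in knockdown 2. All 10 markers of squamous epithelium were present in every library. Their summed value was 4007.65 in control cells, against 3949.04 in knockdown 1 (98.5%) and 2549.74 in knockdown 2 (63.6%), where 9 of the 10 had their lowest value. In knockdown 1 only KRT5 (633.07 in control cells and 779.09) and KRT17 (1171.05 and 1177.9) were above the control. The other squamous markers were below it there, among them KRT14 (449.63 and 357.39) and TP63 (31.89 and 23.54). Knockdown 2 stood apart. The sum of 8 markers of embryonic kidney or HeLa type cells, which are not esophageal, was 10.64, 11.56 and 242.85. The highest of them in knockdown 2 were CDKN2A (0.04, 0 and 144.68), HOXB9 (0.03, 0.35 and 53.12) and IRS4 (0.05, 0.04 and 23.56). HOXD13 was already expressed in control cells (6.38, 7.64 and 16.07), and PAX8 was highest there (4.11, 3.51 and 3.66). PAX2 (0.01, 0 and 0.78), WT1 (0.02, 0.02 and 0.69) and LHX1 (0, 0 and 0.29) were under 1 in every library and highest in knockdown 2. Defining markers of other stromal cells were near 0: 5 endothelial markers summed to 1.22, 0.37 and 0.36, and of 8 fibroblast and smooth muscle markers only ACTA2 (4.6, 4.15 and 7.47) reached 1 in any library, with THY1 at 0 in all. Of 5 leukocyte markers only CD68 did (18.81, 7.88 and 9.93). Each result below is therefore given for knockdown 1 and knockdown 2 apart.

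Of the 80 genes, 34 reached a value of 1 in at least 1 library and were tested, and 46 were under 1 in every library. In limma, none of the 34 passed an adjusted p of 0.05, and none of all 12375 genes tested did (0.0%). At an unadjusted p under 0.05 limma gave 3 of the 34, the integrin chains ITGB1, ITGA2 and ITGA6, against 1.31% of all genes, and each of the 34 had a limma adjusted p of 1. As the control is a single library, each gene's own spread is the difference of its 2 knockdown libraries (1 residual degree of freedom). That spread is moderated by limma with the spread of all genes tested, and the p-values rest on both. The absence of calls thus does not show that values were equal. The median log2 change of the tested members was -0.35, against -0.0004 over all genes tested, and on that log2(value + 1) scale it was -0.25 in knockdown 1 and -0.48 in knockdown 2 (all genes -0.01 and 0.0006). On the same scale no tested member was at least 2-fold lower in knockdown 1 (0.404% of all genes tested) and 4 were in knockdown 2 (0.978%). Adding 1 shrinks the folds of low genes: by the deposited values COL7A1 (36.0% of the control), COL14A1 (39.0%) and COL12A1 (46.8%) were also at less than 50% in knockdown 2. None was at least 2-fold lower (0.097%) or higher (0.0323%) in both libraries. The filter lets a gene in through the library where it is high, so these medians describe the tested members only.

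The genes that the control cells expressed were mostly lower in both knockdown libraries. Among the 20 members at 5 or more in the control, a choice that does not use the knockdown libraries, 18 were below the control in knockdown 1, where 51.7% of all genes at that level were. In knockdown 2 it was also 18 of 20, where 55.4% of all such genes were below. The exceptions were the integrin chains ITGA3 and ITGB4 in knockdown 1, and COL18A1 and LAMB2 in knockdown 2. None of the 20 was at least 2-fold lower in knockdown 1 (0.463% of all such genes) and 4 were in knockdown 2 (1.11%): COL17A1, LAMA3, ITGA2 and ITGB1. Knockdown 2 was below knockdown 1 for 17 of the 20 (52.6% of all such genes). Both comparisons use the same control library, so a high value there would lower both. In these bulk libraries fewer cells of a type and less RNA per cell cannot be told apart. The squamous marker sum at 63.6% of the control stands beside the values of knockdown 2, and its part in them was not tested. In knockdown 1 that sum was 98.5% of the control, with only KRT5 and KRT17 above their control values. Its part there was not tested either. The median log2 change of the 20 was -0.33 in knockdown 1, against -0.01 for all genes at that level. In knockdown 2 the median was -0.78, against -0.04.

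**Figure D1:**
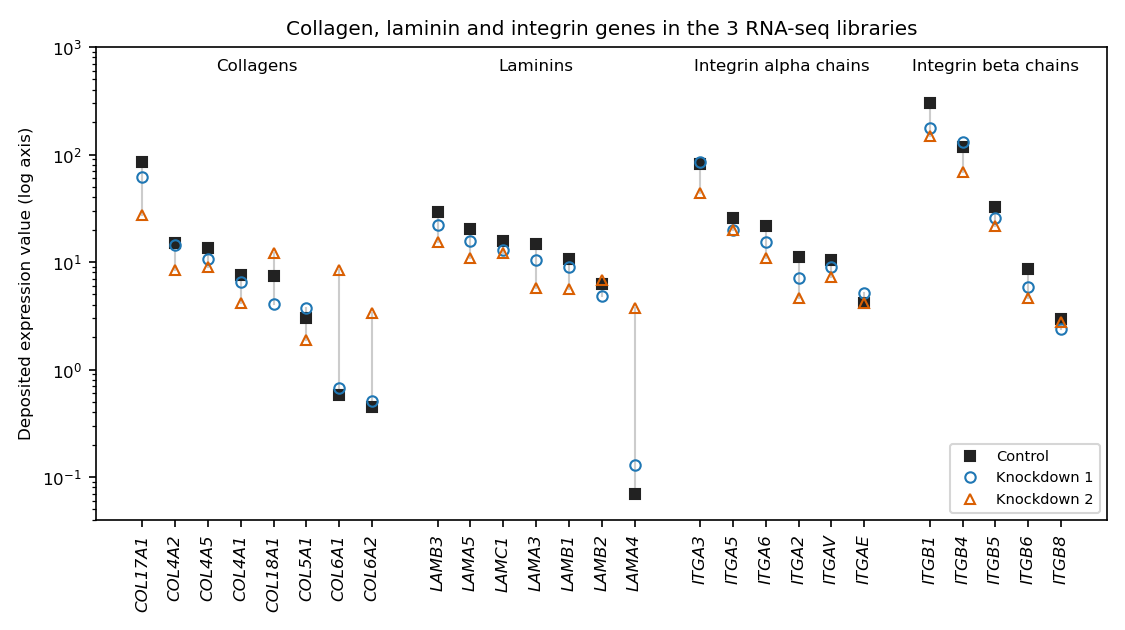
Deposited expression value (log axis) of the 26 genes chosen by level, fold or peak number, by family, in the control (filled squares), knockdown 1 (circles) and knockdown 2 (triangles), with 1 library each. Most genes are highest in the control and lowest in knockdown 2, whereas COL6A1, COL6A2 and LAMA4 reach at least 3.39 in knockdown 2 and stay under 0.7 in the others.

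LAMA3 and LAMB3, chains of laminin-332, the ligand that basal keratinocytes lay down under their hemidesmosomes, were lower in both knockdown libraries. LAMA3, the alpha3 chain, was at 14.74 in control cells, against 10.52 in knockdown 1 and 5.75 in knockdown 2, or 71.4% and 39.0% of the control. LAMB3, the beta3 chain, was at 29.3, 21.92 and 15.26, which is 74.8% and 52.1%. The control was the highest and knockdown 2 the lowest library for both. The limma log2 changes were -0.84 (SE 0.36, unadjusted p = 0.0602) for LAMA3 and -0.65 (SE 0.29, unadjusted p = 0.0693) for LAMB3, each with an adjusted p of 1.

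The start regions of LAMA3 and LAMB3 are shown because the 2 genes had lower values together and both regions hold the letters TGANTCA, a pattern that reads the same on either strand and includes TGACTCA and TGAGTCA, which AP-1 transcription factors bind. Sequences are from RefSeq (GRCh38.p14), the 150 bases before an annotated start, 5′ to 3′ on the strand of the gene, with TGANTCA in capitals: LAMA3 at chr18:23872870-23873019 (plus strand) and LAMB3 at chr1:209651375-209651524 (minus strand). COL17A1, the gene described next, at chr10:104085881-104086030 (minus strand) is given beside them and holds no match in its window.
LAMA3: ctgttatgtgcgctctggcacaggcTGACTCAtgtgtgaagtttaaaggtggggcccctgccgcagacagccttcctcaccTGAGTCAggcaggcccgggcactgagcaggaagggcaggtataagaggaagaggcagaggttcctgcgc
LAMB3: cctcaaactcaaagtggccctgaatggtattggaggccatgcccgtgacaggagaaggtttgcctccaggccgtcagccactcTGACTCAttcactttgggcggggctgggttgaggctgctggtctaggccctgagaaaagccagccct
COL17A1: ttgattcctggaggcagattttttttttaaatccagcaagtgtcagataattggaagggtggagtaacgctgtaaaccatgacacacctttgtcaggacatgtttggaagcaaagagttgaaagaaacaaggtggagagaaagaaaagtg
In LAMA3 the matches lie from 125 to 119 and from 69 to 63 bases before the start, and in LAMB3 from 67 to 61 bases before it. The table of start regions gives LAMB3 other starts too, whose regions hold no match. The LAMA3 start shown was not matched to the transcript listed for the m6A peak of LAMA3. Over windows from 250 bases before to 50 after a start, 4 of 75 windows of the members (5.33%) held the motif, from 57 members with an entry, against 7.71% of all 35116 windows. A match describes letters only. The other members with a match were COL10A1, under 1 in every library and matched only as TGAATCA and TGATTCA, and ITGA5, described with the integrins.

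The remaining members of the hemidesmosome were COL17A1 and the chains of integrin alpha6 beta4. COL17A1, the transmembrane collagen of this junction, was at 84.86 in control cells, against 61.16 in knockdown 1 (72.1%) and 27.3 in knockdown 2 (32.2%). In limma its log2 change was -1.03 (SE 0.47, unadjusted p = 0.0708, adjusted p = 1). ITGA6, the laminin-binding alpha6 chain, was at 21.71, 15.37 and 10.86, with knockdown 1 at 70.8% of the control. Its limma log2 change was -0.70 (SE 0.29, unadjusted p = 0.0493, adjusted p = 1). ITGB4, the beta4 chain whose long cytoplasmic part binds plectin, did not follow its partner in knockdown 1: it was at 116.24, 130.93 and 69.14, which is 113% and 59.5%. PLEC, the plectin gene, chosen after its values were seen, was at 11.44, 12.51 and 6.34 and thus also highest in knockdown 1. DST and CD151, from the list of hemidesmosome and other matrix receptor genes that holds PLEC, were instead highest in the control. DST, chosen after its values were seen, was at 6.28, 5.84 and 4.51, and CD151 at 158.55, 144.24 and 134.15. COL7A1, the anchoring fibril collagen, chosen after its values were seen, was at 3.14, 2.16 and 1.13.

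Of the chains of other basement membrane laminins, LAMA5, LAMB1, LAMC1 and LAMC3 were below the control in both knockdown libraries and LAMB2 in knockdown 1 alone. LAMA5, the alpha5 chain of laminin-511, was at 20.1 in control cells, against 15.76 in knockdown 1 and 10.82 in knockdown 2. LAMB1, the beta1 chain, was at 10.7, 8.9 and 5.62. LAMC1, the gamma1 chain shared by most laminins, was at 15.79, 12.96 and 12.07, and the knockdown libraries were closer to each other than to the control. LAMB2, which replaces beta1 in laminin-521, was at 6.25, 4.87 and 6.8, so knockdown 2 was the highest library. LAMC3, a gamma3 chain chosen after its values were seen, was at 3.48, 3.22 and 2.44. Over the 8 tested laminin genes described, the median change (log2) was -0.29 in knockdown 1, against -0.60 in knockdown 2.

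Type IV collagen, the network former of basement membranes, has 6 chain genes that lie head to head in pairs. COL4A1, which makes the most widespread trimer with COL4A2, was at 7.53 in control cells, against 6.47 in knockdown 1 and 4.15 in knockdown 2. COL4A2 was at 15.09, 14.26 and 8.34, so the pair had nearly the same share of the control in knockdown 2 (55.1% and 55.3%). COL4A5 was at 13.47, 10.62 and 8.96. Its neighbour COL4A6, chosen after its values were seen, was at 2.33, 1.22 and 1.38. Both were below the control in both libraries, but COL4A6 was lowest in knockdown 1 and COL4A5 in knockdown 2. The third pair, COL4A3 and COL4A4, which form the collagen of the kidney filter with COL4A5, was at 0.1 or less in every library. In limma no type IV chain had an unadjusted p below 0.134.

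The start regions of COL4A1 and COL4A2 overlap, and the stretch between them is shown because values of these genes are set side by side above. RefSeq (GRCh38.p14) puts 126 bases between their nearest annotated starts, against 418 between COL4A3 and COL4A4 and 379 between COL4A5 and COL4A6. The stretch, chr13:110307158-110307283, is given 5′ to 3′ on the plus strand, which is that of COL4A2, with nothing in capitals because it holds no TGANTCA.
COL4A2 and COL4A1: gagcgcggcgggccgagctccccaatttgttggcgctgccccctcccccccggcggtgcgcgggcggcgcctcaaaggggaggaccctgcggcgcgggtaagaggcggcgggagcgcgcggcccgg

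COL18A1 and COL5A1 lay on opposite sides of the control in the knockdown libraries. COL18A1, a basement membrane collagen whose C-terminal fragment is endostatin, was at 7.4 in control cells, against 4.11 in knockdown 1 and 12 in knockdown 2, below and above the control. COL5A1, a fibrillar collagen that regulates fibril width, was at 2.99, 3.75 and 1.89, above and then below it. COL1A1, the main chain of type I collagen, was at 3.34, 3.6 and 3.59, while its partner COL1A2 was at 0.02, 0.03 and 0.07. COL1A1 and COL1A2, and COL12A1 (1.09, 1.17 and 0.51) and COL14A1 (0.41, 1.04 and 0.16), which decorate fibrils, were chosen after their values were seen. Of 11 fibrillar collagen genes only COL1A1 and COL5A1 reached 1 in any library. COL3A1, the fibroblast collagen of soft tissue, was at 0.03 in all 3.

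Integrin beta1, the common partner of most matrix-binding alpha chains, had the lowest unadjusted p of all members. ITGB1 was at 301.05 in control cells, against 176.87 in knockdown 1 and 149.23 in knockdown 2, which is 58.8% and 49.6% of the control. The knockdown libraries lay 27.64 apart and both at least 124.18 below the control. In limma its log2 change was -0.89 (SE 0.27, unadjusted p = 0.017, adjusted p = 1). ITGA2, the collagen receptor chain alpha2, was at 11.2, 7.04 and 4.6, or 62.9% and 41.1%, with a limma log2 change of -0.86 (SE 0.30, unadjusted p = 0.03, adjusted p = 1). Both genes kept the order control, knockdown 1, knockdown 2.

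ITGA3, the alpha3 chain that binds laminin-332 outside hemidesmosomes, was at 81.94 in control cells, against 84.84 in knockdown 1 and 43.67 in knockdown 2. Like ITGB4, it was above the control in knockdown 1 and lowest in knockdown 2. ITGA5, the fibronectin receptor chain, was at 25.66, 19.66 and 20.02, nearly alike in both knockdown libraries (76.6% and 78.0%). The motif match in ITGA5 spans from 6 bases before its annotated start to the first transcribed base, as the 30 bases at chr12:54419261-54419290 (RefSeq GRCh38.p14, minus strand, TGANTCA in capitals) show.
ITGA5: gcaaactcctccccgcgtTGAGTCAttcgc
The alphaV chain, which pairs with several beta chains and reads the RGD sequence in matrix proteins, was lower in both. ITGAV was at 10.53, 8.93 and 7.24, and its partners were ITGB5 at 32.46, 25.65 and 21.61, ITGB6 at 8.65, 5.9 and 4.61, and ITGB8 at 2.96, 2.36 and 2.74. ITGB6, which releases TGF-beta from its latent complex in epithelia, was at 68.2% and 53.3% of the control. All 4 were below the control in both libraries, ITGB8 by the least in knockdown 2 (92.6%). ITGAE, a chain known from lymphocytes in epithelia, was at 4.19, 5.16 and 4.17.

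**Figure D2:**
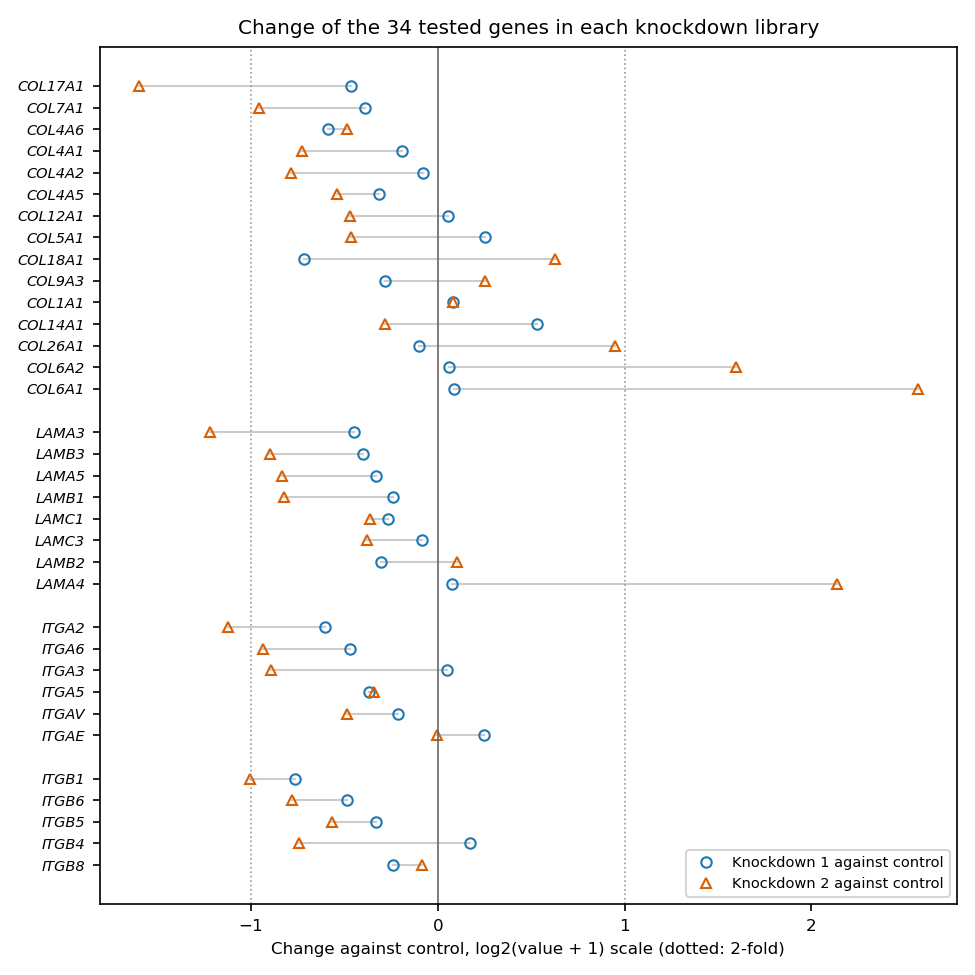
Change against the control on the log2(value + 1) scale for each of the 34 tested genes in knockdown 1 (circles) and knockdown 2 (triangles), 1 library a side, by family and ordered by the mean change; dotted lines mark 2-fold. All circles lie within 2-fold, and the triangles reach from -1.60 for COL17A1 to 2.57 for COL6A1.

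A small group was high in knockdown 2 alone. COL6A1, the alpha1 chain of the microfibrillar collagen VI of interstitial matrix, was at 0.58 in control cells, against 0.68 in knockdown 1 and 8.39 in knockdown 2. COL6A2, the alpha2 chain of the same trimer, was at 0.45, 0.51 and 3.39. COL6A3, the third chain, was not among them (0, 0.04 and 0.03). LAMA4, the laminin alpha4 chain known from vessels and mesenchyme, was at 0.07, 0.13 and 3.71. On the log2(value + 1) scale these were the 3 of the 80 members at least 2-fold higher in knockdown 2 (3.75%, against 2.47% of all genes in the table). Among tested genes they were 3 of the 34 members, where 3.64% of all genes tested were that much higher. On that scale no member was at least 2-fold higher in knockdown 1 (0.242% of all genes tested), while the deposited value of COL14A1 was 254% of the control there. COL26A1 (0.19, 0.11 and 1.3, or 684% of the control in knockdown 2) and COL9A3 (0.73, 0.42 and 1.06) also passed the filter only through knockdown 2, so 5 of the 34 did (14.7%), against 4.19% of all genes tested. CDKN2A at 144.68, HOXB9 and IRS4 were high in this library only, and the part of the cells or RNA that carry them was not tested.

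**Figure D3:**
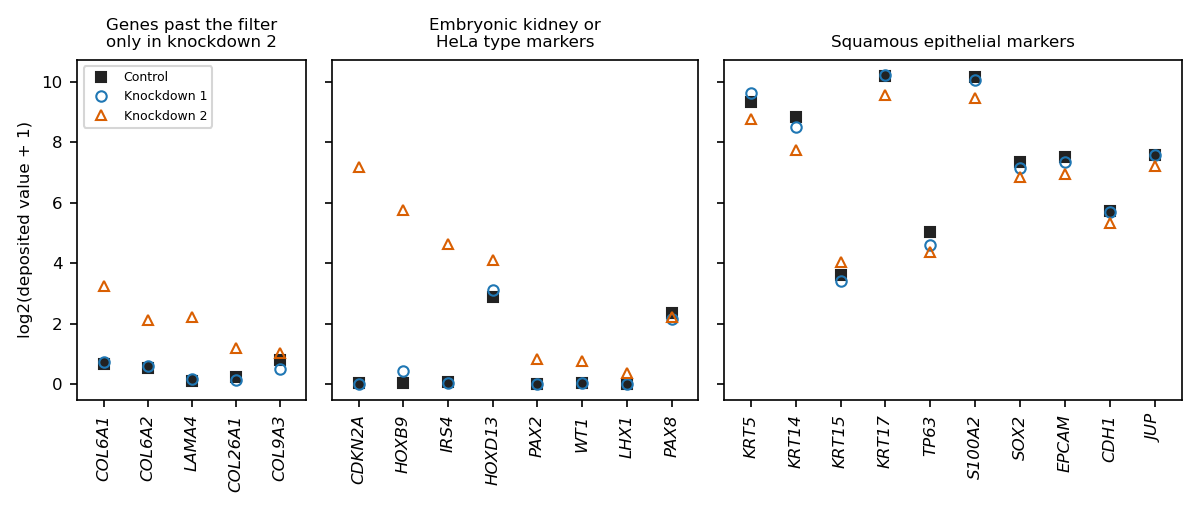
log2(deposited value + 1) in the control (filled squares), knockdown 1 (circles) and knockdown 2 (triangles) of the 5 genes that passed the filter only through knockdown 2, of 8 embryonic kidney or HeLa type markers and of 10 squamous markers, with 1 library each. Knockdown 2 is the highest library for 7 of the 8 markers in the middle and the lowest for 9 of the 10 on the right.

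The 46 members under 1 in every library included chains of connective tissue, cartilage, vessels and blood cells. They were 28 collagen, 3 laminin, 12 integrin alpha and 3 integrin beta genes, and the highest value among them was 0.99, that of the cartilage collagen COL9A2 in knockdown 2. The leukocyte integrin chains were near 0, with ITGB2, the beta chain of that class, at 0.02, 0.06 and 0.03, ITGAL at 0.04, 0.11 and 0.04 and ITGAM at 0, 0.02 and 0.02. The platelet chain ITGA2B was at 0.81, 0.79 and 0.51, with its partner ITGB3 at 0.16, 0.12 and 0.12. LAMA1 and LAMA2, chains of embryonic and muscle basement membranes, were at 0.33 or less.

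Genes that make, bind or cut the matrix were compared by lists. None of the members of any of the 5 lists passed an adjusted p of 0.05 in limma. For collagen synthesis and crosslinking, 24 of 30 genes were tested, with median changes (log2) of -0.10 and -0.28 in knockdown 1 and 2. Its highest members were the prolyl isomerase PPIB (589.75, 648.86 and 567.86), the hydroxylase subunit P4HB (504.19, 522.16 and 413.75) and the collagen chaperone SERPINH1 (128.29, 136 and 96.42). None of these was below the control in knockdown 1. For other matrix glycoproteins, 15 of 23 were tested, with medians of -0.18 and -0.44, and TGFBI (162.76, 142.82 and 84.91), EFEMP1 (52.75, 58.25 and 26.01) and the matricellular THBS1 (48.9, 44.12 and 25.65) were its highest. Chosen after their values were seen, the basement membrane proteoglycan HSPG2 was at 4.29, 1.21 and 1.72 and tenascin TNC at 12.25, 6.32 and 3.46, whereas the basement membrane nidogens NID1 (1.22, 1.33 and 6.29) and NID2 (0.19, 0.2 and 1.35) were highest in knockdown 2.

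The proteins inside the cell that integrins recruit had a median near 0 in knockdown 1. Of 32 adhesion genes 28 were tested, 12 below the control in knockdown 1 (52.1% of all genes tested) and 21 in knockdown 2 (49.7%), with medians of 0.06 and -0.17. Its highest were the actin crosslinkers ACTN1 (150.58, 137.51 and 85.59) and ACTN4 (144.46, 129.16 and 99.27) and the adaptor PXN (131.44, 125.32 and 82.22). The talin gene TLN1, which activates integrins and was chosen after its values were seen, was at 6.33, 6.99 and 9.15. Of 14 hemidesmosome and other matrix receptor genes 13 were tested, with medians of -0.09 and -0.36 and with RPSA (2772.94, 2791.25 and 3325.56), LGALS3 (141.85, 161.15 and 143.13) and the integrin-binding tetraspanin CD151 (158.55, 144.24 and 134.15) highest by mean. Chosen after their values were seen, the syndecan SDC1 was at 161.42, 125.91 and 101.22, and SDC2, with the lowest unadjusted p of the 5 lists in limma (0.00372, adjusted p = 1), was at 0.86, 3.77 and 5.1, higher in both knockdown libraries and thus opposite to the list's medians. Of 18 proteases and inhibitors 14 were tested, with medians of -0.14 and -0.44 and with TIMP1 (181.73, 171.13 and 153.57), MMP2 (36.08, 49.29 and 14.03) and MMP14 (32.66, 16.34 and 20.21) highest.

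m6A peaks were listed for a minority of the members, near the share of other genes at like levels. The deposited list holds 15940 peaks, 42 of them at 25 of the members described, and 17 members (21.2%) had a peak in an exon or untranslated region (UTR), against 31.5% of all genes in the expression table. Of the 34 tested members 13 (38.2%) had such a peak (42.4% of all genes tested), of the 22 at 5 or more in a library 8 (36.4%; 42.3% of all such genes), and of the 46 under 1 in every library 4 (8.7%; 8.31%). By family the members with such a peak were 8 of 43 collagen, 3 of 11 laminin, 4 of 18 integrin alpha and 2 of 8 integrin beta genes. At 5 or more in a library they were 1 of 6 collagen, 2 of 6 laminin, 4 of 6 integrin alpha and 1 of 4 integrin beta genes. These are small numbers, and the difference between families was not tested. The list gives no height or q-value, and the sources used here do not say if the 2 immunoprecipitations were pooled. The coordinates below are the file's own. Its notes name hg38, but the starts that the peaks imply lie 30825 or more bases from the RefSeq GRCh38.p14 starts for all 20 members with both, so hg38 coordinates are not assumed and no sequence was read at the peaks.

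By location class, the members' peaks and all peaks are set side by side without a test. Of 42 peaks 5 were in coding exons (11.9%, 95% Wilson interval 5.19 to 25%), and of all peaks 34.1%. Introns held 16 (38.1%, 25 to 53.2%; all peaks 23.5%), 3′ UTRs 9 (21.4%, 11.7 to 35.9%; 21.5%), 5′ UTRs 7 (16.7%, 8.32 to 30.6%; 11.6%) and upstream regions 5 (11.9%, 5.19 to 25%; 7.84%). Peaks of 1 gene are not independent, so the intervals cover counting error only. The intronic peaks include those of ITGAE and LAMA3, whose listed class is qualified below. Peaks within 1000 bases of the annotated start were 13 of 42 (31.0%; all peaks 22.3%).

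**Figure D4:**
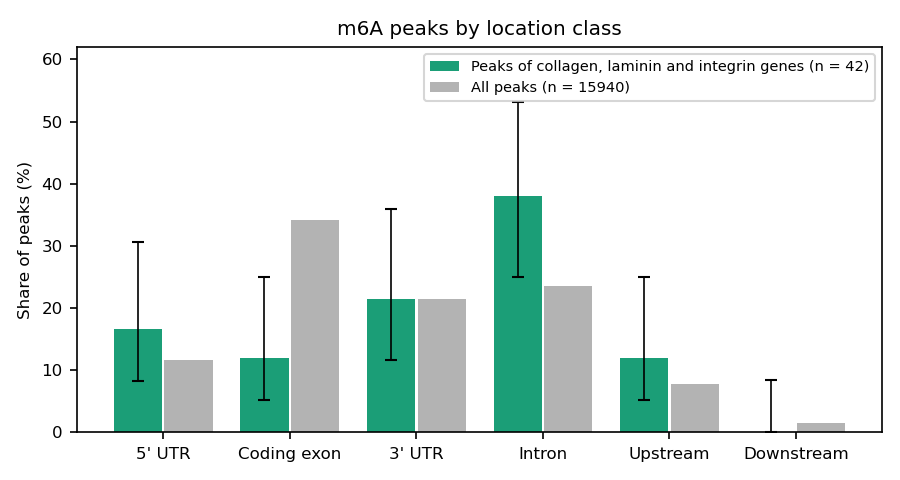
Share of m6A peaks (%) by location class for the 42 peaks of collagen, laminin and integrin genes (green, with 95% Wilson intervals) and for all 15940 peaks (grey). The green bar is at 11.9% in coding exons, where the grey bar is at 34.1%.

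At the hemidesmosome genes COL17A1 and ITGA6 the peaks lay near the ends of the transcript. COL17A1 had a 5′ UTR peak at chr10:105845526-105845744, 3 bases from its start. ITGA6 had a 3′ UTR peak at chr2:173368923-173369354 and 2 peaks just upstream of its start. LAMA3 had only a peak listed as intronic, at chr18:21452883-21453101, and LAMB3 and ITGB4 had 0 peaks in the list used here. The class of the LAMA3 peak refers to a transcript whose start lies 183431 bases away. Whether that peak lies at the start of another LAMA3 transcript was not tested.

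The members with the most exonic or UTR peaks were LAMC1, ITGA5, ITGB8 and COL5A1, with 2 each. LAMC1 had coding exon peaks at chr1:182992886-182993147 and chr1:183111625-183112032. ITGA5 had a 3′ UTR peak of 863 bases at chr12:54789209-54790071 and a 5′ UTR peak at chr12:54812909-54813110. ITGB8 had both in its 5′ UTR, at chr7:20370289-20370592 and chr7:20370751-20370975. COL5A1 had 2 in its 3′ UTR, at chr9:137733957-137734345 and chr9:137735687-137736253, and 4 intronic peaks, the widest of 1659 bases at chr9:137608549-137610207.

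The other integrin chains differed in where their peaks lay. ITGA3 had a 3′ UTR peak of 856 bases at chr17:48166727-48167582, ITGB5 a 3′ UTR peak at chr3:124482215-124482501 and ITGAV a 5′ UTR peak at chr2:187454678-187454904. ITGB1, the member with the lowest unadjusted p, had no exonic or UTR peak. Its 3 peaks were an intronic one 247 bases from the start and 2 upstream of it. ITGAE had 3 intronic peaks from chr17:3627010 to 3629694. RefSeq places the kinase gene HASPIN (3.38, 3.38 and 5.07 in the 3 libraries), 2797 bases long, inside ITGAE. The 3 peaks span 2685 bases from the first to the last. Whether ITGAE or HASPIN gave the peaks, or reads of the overlap, was not tested.

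Tested members with and without an exonic or UTR peak had medians below 0 in both libraries. The 13 with a peak had a median change (log2) of -0.27 in knockdown 1, against -0.38 in knockdown 2, and the 21 without one -0.24 and -0.73. Over all genes tested the medians were -0.02 and -0.03 with a peak and -0.01 and 0.03 without. Of the 4 members at least 2-fold lower in knockdown 2 on the log2(value + 1) scale, COL17A1 had such a peak. By listed class LAMA3, ITGA2 and ITGB1 did not, and the LAMA3 peak was classed against the listed transcript only. Of the 3 lower genes that pass that fold only by their deposited values, COL14A1 had one and COL7A1 and COL12A1 did not. Peaks were mapped only in cells of normal METTL3, so whether a peak was lost on knockdown was not measured.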

How the data were processed

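RNA-seq values (3 libraries) and a list of m6A peaks (1 input and 2 immunoprecipitated libraries) were used as deposited. TopHat2, HTSeq and MACS2 are named per the submitters' processing notes; versions, parameters and the way the expression values were normalised are not stated in any label or header used. The deposited expression signal has 2 decimals and column sums of 608291, 617840.4 and 627152, so it is not raw counts. Depth is unknown and no counting interval is given for it. The peak list, per the file headers, gives other values only: coordinates and the distance to the annotated start.

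Values were transformed to log2(value + 1), genes at 1 or more in at least 1 library were kept, and knockdown was compared with control over all 12375 genes by limma (version 3.58.1, R 4.3.3) with a mean-variance trend and Benjamini-Hochberg adjustment at 0.05. Fold changes on this scale understate those of low genes. Folds of single libraries (1 against 1) have no test. Tables used Python 3.11.15 and pandas 2.3.3.

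Genes named were members at 5 or more in a library, members at least 2-fold from the control in a knockdown library, the members with most exonic or UTR peaks, METTL3, and the 3 highest of each list by their mean over the 3 libraries; all other members and list genes named were chosen after their values were seen. The members, lists and markers were chosen with earlier results of these data known. One gene that matches the rule is not reported here. Start regions were taken from RefSeq by symbol. One upstream peak listed under EMID2, an older name of COL26A1, was not counted. Alternatives were other pseudocounts, filters, scalings, folds and peak classes, limma without the trend and leaving out a knockdown library.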

Additional observations from a re-analysis of the deposited data

How the results depend on the processing

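No member and no gene passed limma's adjusted p of 0.05 under any of the 8 alternatives to the fit; unadjusted p under 0.05 was met by 2 to 6 members. The number of members at least 2-fold from the control in both knockdown libraries was 0, and 2 at 1.5-fold. In knockdown 1 it was 0, against 1 with a pseudocount of 0.1 and 4 at 1.5-fold. In knockdown 2 it was 7, against 4 with a mean of at least 5, which removes the 3 higher genes, and 19 at 1.5-fold. The median log2 change of the members was -0.35 and -0.012 without the filter on low values, which adds the 46 low genes, and ranged from -0.48 to -0.25 on leaving out a knockdown library. Without that filter the integrin alpha median was 0.022 in place of -0.39. On leaving out a library the sign of the log2 change was reversed for COL18A1 (-0.72 and 0.63), COL5A1 (0.25 and -0.47), ITGA3 (0.050 and -0.89), ITGAE (0.25 and -0.0056), ITGB4 (0.17 and -0.74) and LAMB2 (-0.30 and 0.11), given for knockdown 1 and knockdown 2 alone; the other 21 of 27 named genes had 1 sign under all alternatives run. The number of members with an exonic or UTR peak was 17, and 4 with at least 2 such peaks. The cause of these differences was not tested otherwise. No paired analysis was possible because there is 1 control library, which shares no replicate pair with the knockdowns. The unknown depth limits what can be said of members under 1.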
